A study of Neurospora crassa with 16 samples.

Results

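The genes of 3 mitogen-activated protein (MAP) kinase cascades and of hyphal fusion were examined across 3 genotypes of Neurospora crassa. They are the 3 kinase genes of each cascade, and so, the gene of the fusion protein SOFT. In the files they are NCU02393 (mak-2), NCU04612 (mek-2), NCU06182 (nrc-1), NCU02794 (so), NCU09842 (mak-1), NCU06419 (mek-1), NCU02234 (mik-1), NCU07024 (os-2), NCU00587 (os-5) and NCU03071 (os-4). They were taken by locus tag as a fixed list, which makes 10 of 9730 genes in the deposited RNA-seq tables. All 10 were found and all 10 were tested in each comparison. The listed tag of mak-1, NCU11376, is an older tag of NCU09842 in the NC12 annotation, and mak-1 was read under the newer tag. The tested strains were delta epr-1, in which the allele {delta}epr-1::hph replaces the gene of EPR-1, and delta set-7, which lacks the methyltransferase of lysine 27 of histone H3, and both were set against wild type. The study asked whether EPR-1 takes part in the silencing that depends on this methylation. The series holds 16 samples in 8 groups, of which 2 are RNA-seq libraries of delta epr-1 and 14 belong to other assays and were not analysed here. Replicate 1 of delta epr-1 was a mat a strain and replicate 2 a mat A strain, both grown shaken for 16 h at 32 °C in Vogel's medium with 1.5% sucrose. Libraries of delta set-7 and wild type were taken by the authors from an earlier series, so that series and genotype cannot be told apart in any comparison with delta epr-1.

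A MAP kinase cascade is a relay in which a MAP kinase kinase kinase phosphorylates a MAP kinase kinase, which in turn phosphorylates the MAP kinase. In N. crassa, NRC-1, MEK-2 and MAK-2 form the cascade that young cells use to find and fuse with each other, and MAK-2 and SOFT take turns at the tips of the communicating cells. MIK-1, MEK-1 and MAK-1 form the cell wall integrity cascade, which is also needed for fusion. OS-4, OS-5 and OS-2 form the osmotic stress cascade, which lies below the histidine kinase OS-1. These proteins are switched mainly by phosphorylation, and the data below are levels of their mRNA.

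In delta epr-1 the osmotic MAP kinase gene os-2 rose 2.00-fold and so rose 1.62-fold, while os-4, the kinase gene at the top of the osmotic cascade, fell to 0.637 of wild type, in the authors' deposited table. In delta set-7, mek-1 and os-4 fell, to 0.613 and 0.539 of wild type, in the authors' deposited table. The MAK-2 kinase genes mak-2, mek-2 and nrc-1 were called in none of the 3 comparisons by the authors' DESeq2 test. Of the 10 genes, 2 rose and 1 fell in delta epr-1 against wild type at an adjusted p below 0.05, beside 47.8% called among all 8624 tested genes. In delta set-7 against wild type, 0 rose and 2 fell, where 21.8% of all 8254 tested genes were called, and 1 gene had a positive fold at an unadjusted p below 0.05. The direct contrast of delta epr-1 with delta set-7 had 3 genes higher and 0 lower, and 0 lower at an unadjusted p below 0.05, where 45.9% of all 8809 tested genes were called. The share called among the 10 genes, 3 and then 2 of 10 against wild type, was thus not above that of all genes. For counts at an unadjusted p below 0.05, here and below, the share of all tested genes was not computed. Those counts therefore cannot be set against a share, and the shares given are for adjusted p. By direction, 23.3% of tested genes rose and 24.5% fell in delta epr-1 against wild type, 10.3% rose and 11.6% fell in delta set-7, and 22.1% were higher and 23.8% lower in the direct contrast. At an adjusted p below 0.01 the 10 genes kept these counts, where 17.8% of tested genes rose and 20.3% fell in delta epr-1, 6.47% and 8.31% for delta set-7, and 17.0% were higher and 19.7% lower in the direct contrast. With an absolute log2 fold of at least 1 as well, 1 of the 10 genes rose (os-2) in delta epr-1 and the other counts were 0, where 7.13% of tested genes rose and 11.2% fell in delta epr-1, 2.52% and 3.83% for delta set-7, and 8.37% were higher and 10.9% lower in the direct contrast. The log2 fold of os-2, 1.00, lay at that cutoff. The median log2 fold of the 10 genes was 0.10 in delta epr-1 and 0.01 for delta set-7, in the authors' deposited tables, beside -0.00174 and 0.00273 over all genes tested in those comparisons.

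Values below are normalized counts, that is, reads per gene divided by a size factor for the library. The 2 delta epr-1 libraries held 10434667 and 10562443 reads in genes, and the 10 genes held between 1034 and 6671 reads in a library. For delta set-7 and wild type, library values were not used, and a mean is given that follows from the delta epr-1 mean and the authors' deposited fold. The distance of the delta epr-1 mean from such an implied mean therefore restates that fold and adds nothing to it. The 3 means per gene so obtained averaged to between 0.998 and 1.00 times the authors' own mean over all libraries. Because libraries of those 2 genotypes were not read one by one, overlap between groups could not be seen. EPR-1's own locus, NCU07505, checked the labels with 60 and 53 reads in delta epr-1 and a log2 fold of -2.33 (standard error 0.24, adjusted p = 2.76e-21) in the authors' deposited table. The authors' deposited table put the set-7 gene at -1.65 in delta set-7 (standard error 0.64, adjusted p = 0.0460). The delta set-7 label was thus checked less firmly than that of delta epr-1. The standard error of set-7 was 0.64 in every comparison, so it does not show which libraries differed. Whether each delta set-7 library had lost the set-7 mRNA was not tested, and the delta set-7 results below rest on that label. The unmapped reads stood at -0.84 and the reads in more than 1 gene at -0.87 in delta epr-1 against wild type, on the same scale and in the same table, and their part in the results was not tested. In cultures of many cells, a change in RNA per cell and a change in the share of cells that express a gene cannot be told apart.

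**Figure D1:**
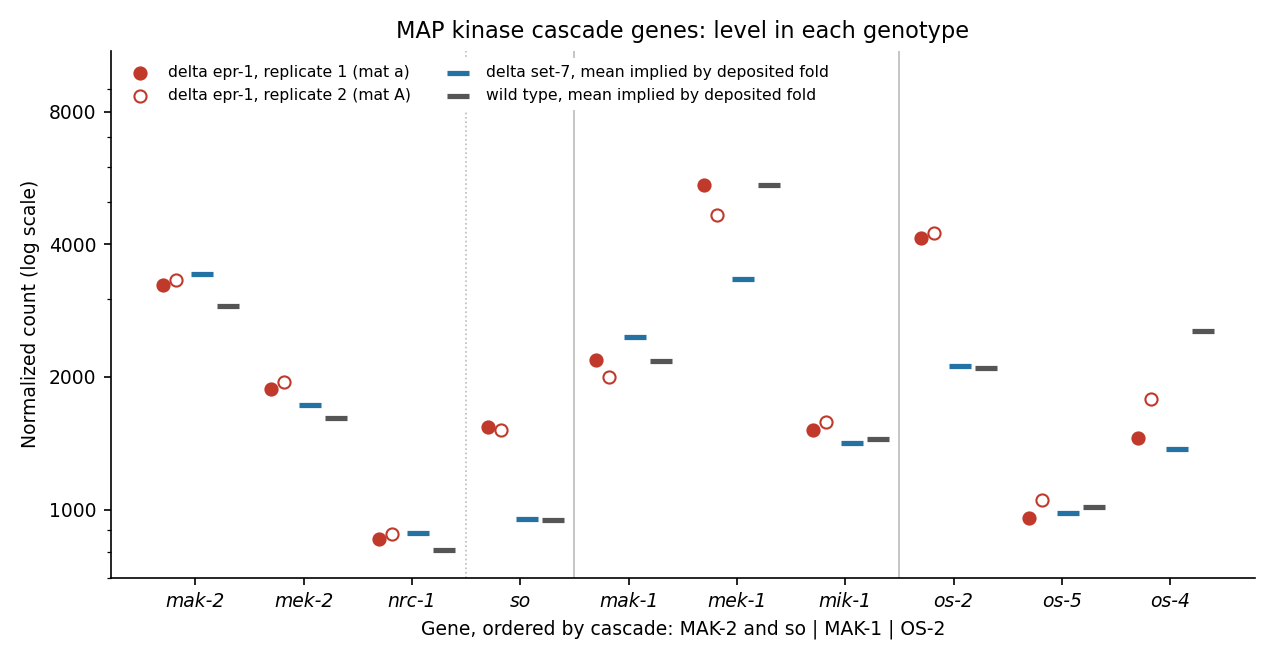
Normalized counts (log scale) of the 10 genes in the 2 delta epr-1 libraries (circles) and the means of delta set-7 and wild type implied by the authors' deposited folds (bars). Both delta epr-1 libraries of os-2 lie at about 2 times the bars of the other genotypes, and both of os-4 lie below the wild-type bar of 2546. The bars follow from the delta epr-1 mean and those folds, so these distances restate the folds.

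The largest change among the cascade genes was that of os-2, which encodes the MAP kinase that yeast knows as Hog1. It had 4135 normalized counts in replicate 1 and 4248 in replicate 2 of delta epr-1, a mean of 4192 ± 79.8 (SD, n = 2), against implied means of 2119 in delta set-7 and 2095 in wild type. The gap between the delta epr-1 libraries was 2.66% of replicate 2. In the authors' deposited table, os-2 rose in delta epr-1 against wild type with a log2 fold of 1.00 (standard error 0.11, adjusted p = 1.78e-17). That fold was exceeded by 7.48% of all tested genes. In delta set-7 against wild type its log2 fold was 0.02 (95% interval -0.21 to 0.24, adjusted p = 0.948) in the authors' deposited table. The difference between the mutants was itself tested, and os-2 was higher in the delta epr-1 strains than in those of delta set-7 by 0.98 on the log2 scale (standard error 0.11, adjusted p = 1.51e-16), in the authors' deposited table.

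Its partners in the osmotic cascade did not rise with it. The MAP kinase kinase gene os-5 had 958.9 and 1053 normalized counts in delta epr-1, against implied means of 982.3 in delta set-7 and 1013 in wild type. Its log2 folds were -0.01 in delta epr-1 (95% interval -0.30 to 0.28) and -0.04 for delta set-7 (95% interval -0.34 to 0.25) by the authors' deposited tables, neither of them called. The MAP kinase kinase kinase gene os-4 had 1456 and 1786 normalized counts in delta epr-1, against implied means of 1373 in delta set-7 and 2546 in wild type. The gap between the delta epr-1 libraries was 18.5% of replicate 2, the widest among the 10 genes.

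By the authors' deposited tables, os-4 fell in both mutants, with a log2 fold of -0.65 in delta epr-1 (standard error 0.14, adjusted p = 2.49e-05) and -0.89 for delta set-7 (standard error 0.14, adjusted p = 2.53e-08). These 2 comparisons share the wild-type libraries. Between delta epr-1 and delta set-7 the log2 fold of os-4 was 0.24 (95% interval -0.05 to 0.53, adjusted p = 0.175) in the authors' deposited table, so that a difference between the mutants did not pass the test and one of up to 1.44-fold lies within the interval. Within the osmotic cascade the folds thus spread over 1.65 log2 units in delta epr-1 against wild type, with os-2 at the top and os-4 at the bottom. In the MAK-2 cascade the same spread was 0.14, and in the MAK-1 cascade 0.20. In delta set-7 against wild type the spread was 0.91 in the osmotic, 0.14 in the MAK-2 and 0.88 in the MAK-1 cascade, and in the direct contrast 0.95, 0.21 and 0.83. These spreads are descriptions and were not tested against each other.

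The so gene encodes SOFT, a scaffold protein without which cells of N. crassa do not fuse. It had 1541 and 1514 normalized counts in delta epr-1, a mean of 1527 ± 19.0 (SD, n = 2), against implied means of 951.5 in delta set-7 and 944.7 in wild type. The 2 delta epr-1 libraries were the closest pair among the 10 genes, 1.77% apart. In the authors' deposited table, so rose in delta epr-1 against wild type with a log2 fold of 0.69 (standard error 0.12, adjusted p = 5.75e-08), and its log2 fold in delta set-7 was 0.01 (95% interval -0.23 to 0.25, adjusted p = 0.969). In the direct contrast so was higher in delta epr-1 by 0.68 on the log2 scale (standard error 0.12, adjusted p = 1.89e-07), in the authors' deposited table. A log2 fold above that of so against wild type was held by 15.8% of all tested genes.

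The MAK-2 cascade, which acts in the same process as SOFT, had no called gene. The MAP kinase gene mak-2 had 3226 and 3319 normalized counts in delta epr-1, against implied means of 3425 in delta set-7 and 2898 in wild type. Its log2 fold was 0.18 in delta epr-1 (95% interval -0.02 to 0.38, adjusted p = 0.148) and 0.24 for delta set-7 (95% interval 0.04 to 0.44, adjusted p = 0.0766) by the authors' deposited tables. For mek-2, the MAP kinase kinase gene, 1874 and 1946 normalized counts were found in delta epr-1, against implied means of 1730 in delta set-7 and 1613 in wild type. In the authors' deposited tables mek-2 had log2 folds of 0.24 in delta epr-1 (95% interval 0.00434 to 0.48, adjusted p = 0.0875) and 0.10 for delta set-7 (adjusted p = 0.646). The mRNA of nrc-1, at the top of the cascade, stood at 856.7 and 878.0 normalized counts in delta epr-1, against implied means of 882.5 in delta set-7 and 808.5 in wild type. Its log2 folds in the authors' deposited tables were 0.10 (95% interval -0.19 to 0.39) and 0.13 (95% interval -0.17 to 0.42). All 3 genes of this cascade had positive folds in both mutants, which share the wild-type libraries, and none passed the test.

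**Figure D2:**
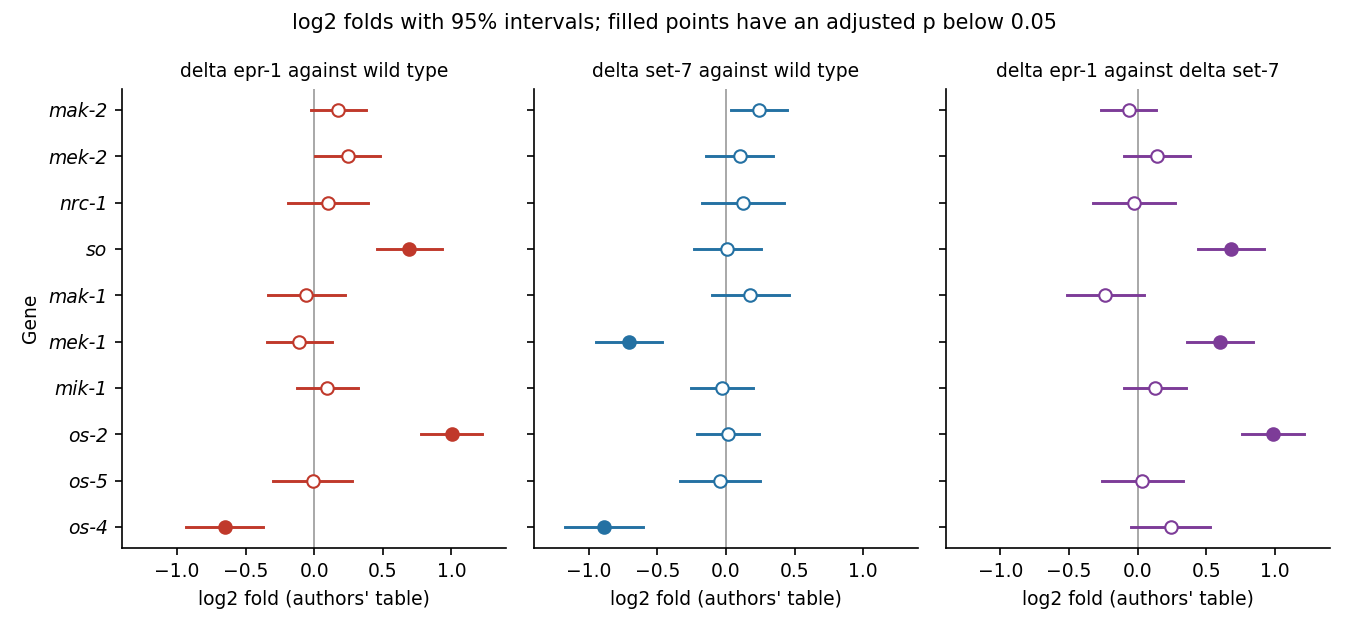
log2 folds of the 10 genes from the authors' deposited tables with 95% intervals, for each mutant against wild type and for delta epr-1 against delta set-7. Filled points mark os-2, so and os-4 on the left, mek-1 and os-4 in the middle, and so, mek-1 and os-2 on the right.

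In the cell wall integrity cascade 1 gene moved, and it did so in delta set-7. The MAP kinase kinase gene mek-1 had 5453 and 4670 normalized counts in delta epr-1, against implied means of 3344 in delta set-7 and 5454 in wild type. Replicate 1 of delta epr-1 was 16.8% above replicate 2. In the authors' deposited table, mek-1 fell in delta set-7 against wild type with a log2 fold of -0.71 (standard error 0.12, adjusted p = 2.63e-07), and 8.88% of all tested genes had a lower fold. Its log2 fold in delta epr-1 was -0.11 (95% interval -0.35 to 0.13, adjusted p = 0.491) in the authors' deposited table. The mutants differed, with mek-1 higher in delta epr-1 by 0.60 on the log2 scale (standard error 0.12, adjusted p = 6.32e-06), in the authors' deposited table.

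The other 2 genes of that cascade were called in no comparison. The MAP kinase gene mak-1 had 2189 and 1996 normalized counts in delta epr-1, against implied means of 2462 in delta set-7 and 2176 in wild type. Its log2 folds were -0.06 in delta epr-1 (95% interval -0.34 to 0.22) and 0.18 for delta set-7 (95% interval -0.10 to 0.46), and in the direct contrast -0.23 (95% interval -0.52 to 0.05, adjusted p = 0.178), in the authors' deposited tables. The MAP kinase kinase kinase gene mik-1 had 1515 and 1578 normalized counts in delta epr-1, against implied means of 1419 in delta set-7 and 1449 in wild type. Its log2 folds were 0.09 (95% interval -0.13 to 0.32) and -0.03 (95% interval -0.26 to 0.20) in the authors' deposited tables. Across all 10 genes the standard error of a log2 fold lay between 0.10 and 0.15, so the intervals reached 0.20 to 0.30 log2 units to either side.

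By tier, the MAP kinase genes had 1 call against wild type (os-2, higher in delta epr-1), the MAP kinase kinase genes 1 (mek-1, lower in delta set-7) and the MAP kinase kinase kinase genes 2 (os-4, lower in each mutant). With 47.8% and 21.8% of all tested genes called in these comparisons, no tier stands apart by its number of calls. The absolute log2 ratio of the 2 libraries ran from 0.03 for so to 0.29 for os-4, beside a median of 0.11 over 1814 genes with means in the same range. Leaving out either delta epr-1 library in turn kept the log2 fold of os-2 between 0.98 and 1.02 and that of so between 0.68 and 0.71 against wild type. For os-4 the range was -0.81 to -0.51, and its adjusted p was at most 0.0124.

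The 10 genes lie on 5 chromosomes of the NC12 annotation, and the nearest of them to a chromosome end, so, has 136 genes between it and that end. H3K27 methylation in N. crassa is known for domains close to chromosome ends. The genes next to those that changed were read as well. On either side of os-2, NCU07023 stood at -0.56 and NCU07027 at -2.03 in delta epr-1 against wild type in the authors' deposited table, both called and both opposite in sign to os-2. Beside so, NCU10987 stood at 0.37, not called, and NCU02793 fell with a log2 fold of -0.98 in delta epr-1 in the authors' deposited table. In delta set-7, NCU06418 beside mek-1 stood at -0.14 and was not called, and NCU16630 on its other side, with 1.63 and 0 normalized counts in delta epr-1, had no adjusted p in the authors' deposited table. The neighbours of os-4 stood at -0.10 (NCU03070) and -0.55 (NCU03072) in delta epr-1, the second of them called, and at -0.45 and -0.31 in delta set-7, neither called, in the authors' deposited tables. A place further out, NCU16490 and NCU10282 rose with so in delta epr-1, at 0.41 and 0.64, both called. Those around os-2 stood at 0.28 and 0.44, neither called, and those around os-4 at 0.04, not called, and 0.64, called. In delta set-7, NCU06417 and NCU06420 around mek-1 stood at 0.38, not called, and -0.74, called. Those around os-4 stood there at 0.36 and -0.26, neither called. Over the 10 genes, 17 of 20 adjoining genes were tested in each comparison. In delta epr-1 against wild type 6 were higher and 5 lower, where 23.3% and 24.5% of all tested genes were called higher and lower. In delta set-7 against wild type 0 were higher and 3 lower, beside 10.3% and 11.6%. In the direct contrast 7 were higher and 2 lower, beside 22.1% and 23.8%. Each of mak-2, mek-2 and mak-1 overlaps 1 other gene in that annotation. The files hold an entry for ambiguous reads, set apart from the genes, and the strand setting is not stated, so the counts of these 3 genes may lack reads from the overlap. None of the 4 genes that changed has such an overlap.

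**Figure D3:**
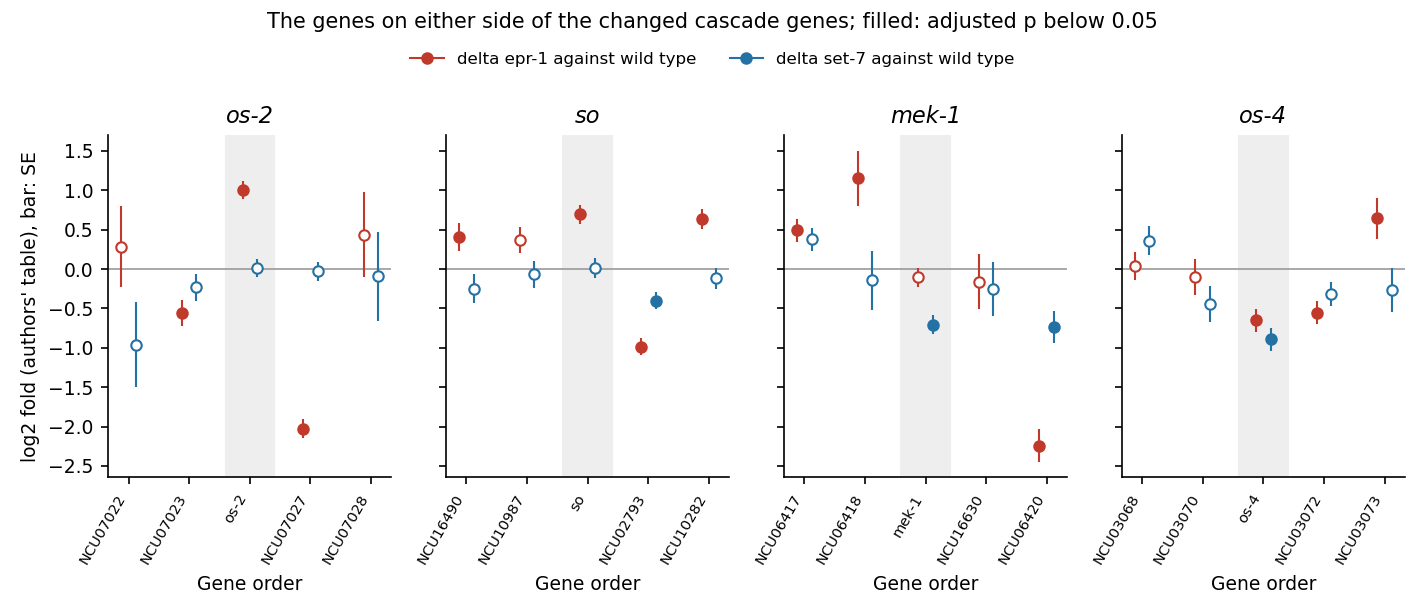
log2 folds with standard errors, from the authors' deposited tables, of os-2, so, mek-1 and os-4 (grey band) and of the 2 genes on either side of each in chromosome order. In delta epr-1 against wild type, os-2 stands at 1.00 between 2 genes with negative folds.

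Other genes were followed as lists of 30 genes, drawn up for fusion and MAK-2 signalling (19 genes), MAK-1 signalling (4) and osmotic signalling around OS-2 (7). The place of each listed gene in its pathway was not checked. Fusion genes went in both directions in delta epr-1. In the fusion list 6 of 19 rose and 4 fell in delta epr-1 against wild type, beside 23.3% higher and 24.5% lower among all tested genes, with a median log2 fold of 0.16 in the authors' deposited table. The largest rise was that of prm-1, the gene of a membrane protein that acts when the 2 plasma membranes merge, with a log2 fold of 1.56 (standard error 0.30, adjusted p = 1.07e-06) in the authors' deposited table. It had 545.2 and 373.6 normalized counts in the delta epr-1 libraries, so the libraries themselves differed. The gene of HAM-5, the scaffold of the MAK-2 cascade, followed with 1656 and 1472 normalized counts and a log2 fold of 1.28 (standard error 0.14, adjusted p = 1.70e-19) in the authors' deposited table. Thus the scaffold gene of the cascade rose where its 3 kinase genes were not called.

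The fusion genes ham-6 and ham-9 rose as well, by 1.21 (standard error 0.18, adjusted p = 2.34e-10) and 1.00 (standard error 0.22, adjusted p = 2.90e-05) on the log2 scale, in the authors' deposited table. Their normalized counts in the delta epr-1 libraries were 1500 and 1183 for ham-6, and 3558 and 2568 for ham-9. As for prm-1 and ham-5, replicate 1 was the higher, and the cause was not tested. Without replicate 1 of delta epr-1, ham-9 stood at 0.75 (adjusted p = 0.0190). The largest fall of the list was that of nor-1, which encodes the regulator of the NADPH oxidases, with a log2 fold of -2.10 (standard error 0.11, adjusted p = 2.86e-74) in the authors' deposited table. Its partner nox-1, an NADPH oxidase gene, stood at 0.25 (adjusted p = 0.196) there and is named for that partnership, after its values were seen. Also lower was ham-3, the gene of a striatin-like protein, with a log2 fold of -0.87 (standard error 0.15, adjusted p = 3.78e-08) in the authors' deposited table.

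In delta set-7 against wild type, 0 of the 19 fusion genes rose and 4 fell by the authors' DESeq2 test, beside 10.3% higher and 11.6% lower among all tested genes, and 1 had a positive fold at an unadjusted p below 0.05. The 4 that fell were ham-6 with a log2 fold of -1.03 (standard error 0.19, adjusted p = 2.05e-06), ham-10 with -0.54 (adjusted p = 0.000655), nor-1 with -0.44 (adjusted p = 0.000980) and pp-1 with -0.40 (adjusted p = 0.000960), in the authors' deposited table. The ham-6 gene therefore moved in opposite directions in the mutants, and in the direct contrast it was higher in delta epr-1 by 2.25 on the log2 scale (standard error 0.19, adjusted p = 4.59e-30) in the authors' deposited table. The same held for pp-1, the gene of the transcription factor below MAK-2, which stood at 0.35 in delta epr-1 (adjusted p = 0.00131) and at 0.75 in the direct contrast (adjusted p = 1.84e-12) in the authors' deposited tables. It was singled out after its values were seen. In the direct contrast prm-1 (1.84), ham-5 (1.34) and ham-9 (1.13) were also higher in delta epr-1, and nor-1 (-1.67) and ham-3 (-0.74) were lower, in the authors' deposited table.

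The lists around MAK-1 and OS-2 are short, and their counts lie within a gene or 2 of the shares of all tested genes, 23.3% higher and 24.5% lower in delta epr-1 and 10.3% and 11.6% for delta set-7. Of 4 MAK-1 pathway genes 1 rose and 2 fell in delta epr-1, and 0 rose and 1 fell in delta set-7, with 0 positive folds there at an unadjusted p below 0.05, by the authors' DESeq2 test. The unnamed listed gene NCU02558 stood at -0.64 in delta epr-1 against wild type (adjusted p = 0.0123) and -0.62 in the direct contrast (adjusted p = 0.0159) in the authors' deposited tables. Its call against wild type was lost without replicate 2 of delta epr-1, at an adjusted p of 0.0619, and that in the direct contrast without either replicate, at 0.0534 and 0.0728. Of 7 genes in the osmotic list 0 rose and 3 fell in delta epr-1, with 1 positive fold at an unadjusted p below 0.05. In delta set-7, 0 rose and 1 fell, with 0 such folds. Both counts are by the authors' DESeq2 test. The histidine kinase gene nik-2 fell in both mutants, with log2 folds of -0.83 (adjusted p = 1.32e-11) and -0.57 (adjusted p = 1.78e-05) in the authors' deposited tables. The transcription factor gene asl-1 fell in delta epr-1 with a log2 fold of -0.81 (standard error 0.15, adjusted p = 2.03e-07) and was lower there than in delta set-7 by -0.54 (adjusted p = 0.000894), in the authors' deposited tables. The histidine kinase gene os-1, above the cascade in which os-2 rose, had log2 folds of 0.12 (adjusted p = 0.288) and -0.06 (adjusted p = 0.707) in the authors' deposited tables, and it too was named after its values were seen.

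Over all 30 genes the direct contrast of delta epr-1 with delta set-7 had 11 higher and 7 lower, beside 22.1% and 23.8% of all tested genes. Without replicate 1 of delta epr-1 there were 6 higher, and without replicate 2 there were 3 lower. The share of all tested genes called with a library left out was not computed. Whether these genes lost more calls than others therefore cannot be read from these counts.

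**Figure D4:**
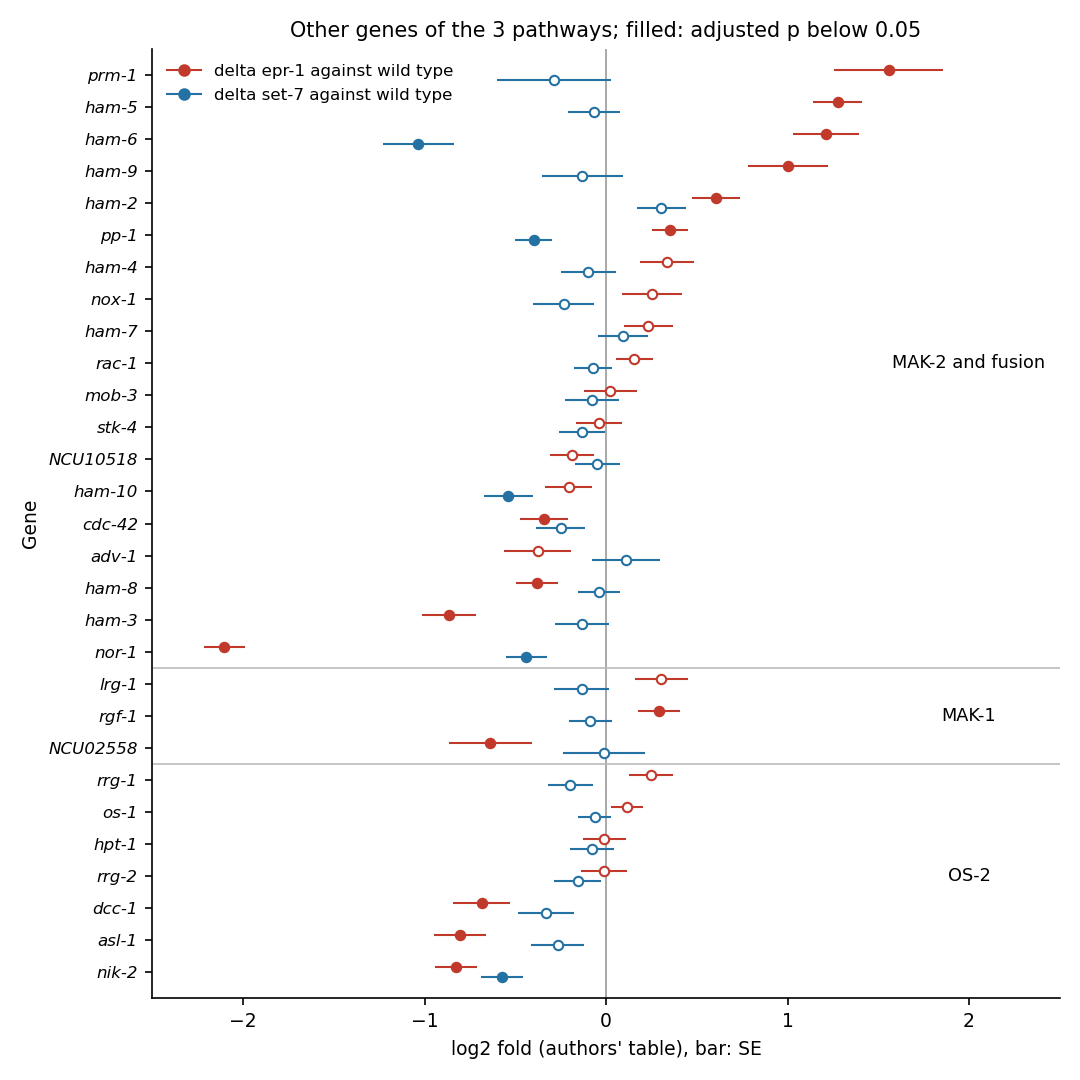
log2 folds with standard errors, from the authors' deposited tables, of other genes listed for the MAK-2 and fusion, MAK-1 and OS-2 pathways (all but 1 of the 30 listed), for each mutant against wild type. In delta epr-1 the fusion list runs from 1.56 for prm-1 to -2.10 for nor-1, while no filled point of delta set-7 lies above 0.

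The labels give germinated conidia as the source and speak of harvested mycelia in the protocol, and genes typical of conidia were read beside these results. All 5 of con-6, con-8, con-10, con-13 and eas had reads in both delta epr-1 libraries, and together they held 23921 normalized counts in replicate 1 and 17272 in replicate 2, which is 0.280% and 0.193% of the total. Among them eas, the gene of the hydrophobin that coats conidia, had 13576 and 3973 normalized counts. In delta epr-1 against wild type 1 of the 5 rose (eas, 1.65) and 1 fell (con-10, -1.47), and in delta set-7 1 rose (con-6, 1.13) and 2 fell (con-8, -1.84, and con-10, -2.23), in the authors' deposited tables. Among all tested genes 23.3% rose and 24.5% fell in delta epr-1, and 10.3% and 11.6% for delta set-7. The part of conidial RNA in the cascade results was not tested.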

How the data were processed

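Poly(A) RNA of 2 delta epr-1 strains was read with a stranded kit, per the labels' protocols. Bowtie2, DESeq2 and deepTools are named in the submitters' processing notes, and their versions, the genome build and counting settings are not given in the sources used here. A signal table of DESeq2 normalized counts was deposited by the authors, per the file headers. With size factors of 1.22 and 1.18, its 2 delta epr-1 columns gave whole reads (tolerance 0.01) for 100% of genes. The 4 columns of other libraries were not used, which leaves 1 group, and no count test was run on those reads. Summary entries without a gene held 19.1% and 17.5% of reads and were left out.

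The authors' deposited comparison tables hold log2 folds with standard errors, a Wald score, p-values and adjusted p-values, per the file headers. Whether the folds were shrunk toward 0 is not stated in the labels or headers. Signs were turned so that positive means higher in the mutant, or in delta epr-1 over delta set-7. A call is an adjusted p below 0.05. These p-values rest on the spread between libraries as the authors' DESeq2 test modelled it, not on that of each gene alone. The 2 delta epr-1 libraries came from separate strains. Both wild-type columns carry the name of 1 strain, per the file headers, so spread between wild-type strains was not measured. Intervals are 95% and are the fold ± the normal quantile times its standard error, with counting and library error as the authors modelled them.

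The genes and lists were chosen with earlier results of these data known. Named were the 10 genes and, among 30 of 32 listed pathway genes, the 4 largest called folds per direction and comparison. The genes pp-1, nox-1 and os-1 are named outside that rule. Left out were 2 genes because the annotation gives them another symbol, and 2 are given by locus tag. Of the 30, 1 is counted in its list but not reported here by name. Gene names and order come from RefSeq NC12, and 9729 of 9730 genes matched. Gene lengths were not used, so levels are not compared between genes. Alternatives were calls at an adjusted p below 0.01, calls that also had an absolute log2 fold of 1 or more, no filter on low counts, a mean of at least 50, recentred folds, and each delta epr-1 library left out. For the last, the kept library's log2 distance from the mean of both (pseudocount 0.5) was added to the fold. The variance due to delta epr-1, which follows from the 3 standard errors of a gene, was counted 2 times, so the kept library is assumed to vary like the other. The steps were tested on simulated data, with Python 3.11.15, pandas 2.3.3 and scipy 1.17.1.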

Additional observations from a re-analysis of the deposited data

Results flagged for a closer look

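For 3 of the 10 genes the responses to loss of epr-1 and to loss of set-7 differed when the mutants were compared directly in the authors' deposited table, where 45.9% of all tested genes were called. For os-2 the log2 difference of delta epr-1 over delta set-7 was 0.98. For so it was 0.68. For mek-1 it was 0.60, and there the change against wild type was in delta set-7.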

How the results depend on the processing

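No member's call changed with an adjusted p below 0.01, no filter on low counts, a mean of at least 50, recentred folds or either delta epr-1 library left out. With an absolute log2 fold of at least 1 besides the adjusted p, 1 of the 10 genes (os-2) rose in delta epr-1 against wild type. There 0 fell, 0 fell in delta set-7 against wild type, and 0 were higher in the direct contrast. The log2 fold of os-2, 1.00, lay at the cutoff, and it was 0.98 without replicate 2 of delta epr-1. Fewer genes can pass this fold rule by construction. Under that rule the other pathway genes gave 4 higher and 1 lower in delta epr-1 against wild type, 1 lower in delta set-7 against wild type, and 4 higher and 1 lower in the direct contrast. All tested genes gave 7.13% and 11.2%, 3.83% lower, and 8.37% and 10.9% in the same order. An adjusted p below 0.01 gave 4 lower in the direct contrast, beside 19.7% of all tested genes. With a delta epr-1 library left out, the direct contrast gave 6 to 10 of the other pathway genes higher and 3 to 6 lower. The share of all tested genes in that setting was not computed. Uncalled folds near 0 changed sign: leaving out a delta epr-1 library put mak-1 at -0.12 to 0.00864 and os-5 at -0.0787 to 0.0563 against wild type, and os-5 at -0.0348 to 0.1002 in the direct contrast. NCU02558 lost its call without replicate 2 against wild type (adjusted p = 0.0619) and without either in the direct contrast. The cause of these changes was not tested. No paired analysis was possible because the labels give no replicate numbers that groups share. Libraries of delta set-7 and wild type, whose columns were not used here, were not left out one by one. With 2 delta epr-1 libraries, changes of a gene within 0.20 to 0.30 log2 units lie inside the intervals.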

Other observations

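Some genes next to cascade members that were not called were themselves called, and they were picked after their values were seen. Beside mik-1, gh47-6 rose in delta epr-1 against wild type with a log2 fold of 1.13 (adjusted p = 1.10e-11) in the authors' deposited table, while mik-1 stood at 0.09. Around mik-1, NCU02236 (0.63) and NCU02232 (0.98) also rose there, and NCU02233 (0.18) was not called. Beside os-5, the cell wall protein gene ncw-6 fell in the delta set-7 strains, its log2 fold being -1.56 (adjusted p = 4.79e-06) in the authors' deposited table, while os-5 stood at -0.04. Around os-5, NCU00589 (-0.63) and al-2 (-0.84) also fell there, and NCU00590 (0.47) rose.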
